A study of Mus musculus with 14 samples.

Results

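The cadherins and protocadherins are 92 protein-coding genes of the mouse whose GRCm38 symbols begin with Cdh and a number or with Pcdh, and all 92 were found by Ensembl identifier among the 52110 genes that the tables of both tissues share. They were taken by symbol. By family, 5 are type I cadherins, 13 type II cadherins, 5 other cadherins, 12 protocadherins outside the clusters, and 14, 22 and 21 belong to the alpha, beta and gamma protocadherin clusters, which were kept apart from the other 35.

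RNA-Seq counts were obtained from 14 libraries of GFP-sorted embryonic kidney cells on a mixed C57BL6/Rcc and 129/SvEv background, each from both kidneys of 1 embryo. The MAPK/ERK-deficient ureteric bud (UB dko, n = 4, E12.5) carried HoxB7Cre-GFP, Mek1 fl/fl and Mek2-/-, and the UB controls (UB ctrl, n = 4, E12.5) carried HoxB7Cre-GFP and Mek1 fl/+ with Mek2+/- in libraries 1, 3 and 4 and Mek2+/+ in library 2. The MAPK/ERK-deficient metanephric mesenchyme (MM dko, n = 3, E13.5) carried Six2-TGC, Mek1 fl/fl and Mek2-/-, and the MM controls (MM ctrl, n = 3, E13.5) carried Six2-TGC, Mek1 fl/+ and Mek2+/+. Mek1 is therefore deleted only where the Cre is active, in the ureteric epithelium or in Six2-expressing nephron progenitors, whereas Mek2 is lost in the whole embryo, and by their labels the controls too carry the Cre and a floxed Mek1 allele. The study's methods also list controls with Mek1+/+ in the UB and with Mek2+/- in the MM, which no library label gives.

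Cadherins are transmembrane proteins that hold neighbouring cells together through calcium-dependent binding, mostly to the same cadherin on the facing cell. Type I and type II cadherins are anchored to actin through catenins, and which of them a tissue makes changes when kidney mesenchyme becomes epithelium. The clustered protocadherins are best known from neurons, where each cell uses its own choice of variable exons, while the members of the alpha and gamma clusters share constant exons at their 3′ ends.

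Library facts bear on several values below, where levels are in CPM, the counts of a gene relative to the TMM-scaled total of its library. Totals were 4857053 to 7493144 counts in UB libraries, 1443582 to 3438297 in MM dko and 5880919 to 6442484 in MM ctrl. Low-GC genes stood above high-GC genes by 2.20 to 3.23 on the log2 scale in the MM dko libraries, by 2.27 and 1.62 in UB dko libraries 2 and 4, by -0.19 and -0.26 in UB dko libraries 1 and 3, and by -0.28 to 0.46 in the controls. Mitochondrial rRNA took 11 to 15.9% of counts in MM dko and 1.73 to 2.27% in MM ctrl, and 1.40, 6.40, 7.02 and 3.23% in UB dko libraries 1 to 4 and 1.05 to 1.37% in UB ctrl. The rRNA-rich gene Gm42418 took 32.5% of counts in UB dko library 3 and 3.26 to 4.65% in the other UB libraries. The part of these shares in the values below was not tested. Map2k2 (Mek2) was at 44.2, 6.78, 47.2 and 10.3 CPM in the libraries labelled UB dko 1 to 4, against 31.3, 49.1, 62.9 and 34.2 CPM in UB ctrl, so that UB dko libraries 1 and 3 fell among the control values of this gene. It was at 2.64, 5.59 and 3.92 CPM in MM dko, against 52.6, 62.9 and 48.4 CPM in MM ctrl. Its transcript has 60.4% GC and its low values lie in the libraries with the GC trend, and its log2 fold change of -0.70 in the UB and -3.86 in the MM became -0.41 and -1.81 once GC and length offsets entered the fit. Map2k1 (Mek1) was at 26.6 to 37.1 CPM in UB dko and 19.7 to 28.9 CPM in UB ctrl. In the MM it was at 38.5, 32.8 and 25.9 CPM in MM dko, against 17.2, 18.9 and 22.9 CPM in MM ctrl. Its log2 fold change there was 0.70 (adjusted p = 0.0466 in edgeR), and 1.35 with GC and length offsets. These whole-gene counts include exons outside the deleted parts, so they are a weak check of genotype. Genes known to follow ERK signalling in the bud were lower in all 4 libraries labelled UB dko, Ret at 125, 86.8, 70.8 and 121 CPM, against 322 to 352 CPM in UB ctrl, Ccnd1 at 103, 88.4, 74.4 and 106 CPM, against 305 to 360 CPM, and Wnt11 at 32.3, 6.10, 18.1 and 2.85 CPM, against 52.6 to 80.6 CPM. These 3 genes were chosen after their values were seen. UB results are therefore given also for libraries 1 and 3 alone and for libraries 2 and 4 alone. Markers of ureteric epithelium summed to 2821 to 3150 CPM in UB dko, 3306 to 3668 CPM in UB ctrl and at most 39.5 CPM in MM libraries. Nephron progenitor markers summed to 1650 to 2199 CPM in MM dko, 1586 to 1828 CPM in MM ctrl and at most 41.1 CPM in UB libraries. Members of the latter list moved in different directions in the MM. Six2 was at 172, 598 and 365 CPM in MM dko, against 501, 495 and 777 CPM in MM ctrl. Osr1 was at 32.9 to 40.8 CPM in MM dko, against 49.9 to 97.6 CPM in MM ctrl. Eya1 was at 675 to 911 CPM in MM dko, against 437 to 463 CPM in MM ctrl, and Itga8 at 330 to 339, against 145.3 to 200.5 CPM.

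The bases before the annotated starts of Cdh6 and Cdh24 are shown because these members had the widest called differences of the dko effect between the tissues, as described below. Each is the 250 bases upstream of the start in RefSeq on GRCm38.p6, read 5′ to 3′ on the minus strand on which both genes lie, at chr15:13173676-13173925 for Cdh6 and chr14:54641365-54641614 for Cdh24. Capitals mark AGGAAG, a core bound by PEA3-type ETS factors, and GGGCGG, the GC box bound by Sp1-type factors, searched on both strands.
Cdh6: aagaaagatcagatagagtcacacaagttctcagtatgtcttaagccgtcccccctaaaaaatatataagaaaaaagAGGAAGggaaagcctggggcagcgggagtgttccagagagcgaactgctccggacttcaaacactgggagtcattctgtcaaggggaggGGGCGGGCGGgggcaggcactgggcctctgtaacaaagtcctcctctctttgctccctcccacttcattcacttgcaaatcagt
Cdh24: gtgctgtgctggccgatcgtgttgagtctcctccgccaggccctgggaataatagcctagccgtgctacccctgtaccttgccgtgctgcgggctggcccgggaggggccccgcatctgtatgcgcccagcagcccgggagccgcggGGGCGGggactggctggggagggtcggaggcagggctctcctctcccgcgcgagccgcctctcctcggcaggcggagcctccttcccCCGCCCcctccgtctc
The Cdh6 window held AGGAAG once, starting 173 bases before the start, and an overlapping pair of GGGCGG, and the Cdh24 window held GGGCGG on each strand and no AGGAAG. Of 32851 windows of the same length, 29.5% held AGGAAG and 32.7% held GGGCGG, so neither match sets these windows apart. The longer ETS site CCGGAAGT (2.88% of windows), the E-box CACCTG (17.2%) and TATAAA (12.4%) were in neither window. GC content was 51.2% for Cdh6 and 72.8% for Cdh24. Promoter windows were found for 22 of the 92 members.

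The question of the control tissues was which cadherins each of them makes. Per kb of exon, so that genes can be compared with each other, the highest levels in UB ctrl were those of Cdh3 (P-cadherin) at 78.0 ± 6.1, Cdh1 (E-cadherin, the main adhesion protein of epithelia) at 60.5 ± 5.9, Cdh16 (the kidney-specific Ksp-cadherin) at 38.9 ± 4.3, Pcdh7 at 20.9 ± 0.86 and Pcdh19 at 13.4 ± 1.4 CPM per kb (SD, n = 4). Each was above the next by more than the sum of their SDs, apart from Pcdh19, which lay close to Cdh24 in sixth place (11.9 ± 2.1 CPM per kb). In MM ctrl the order was Cdh11 (a cadherin of mesenchymal cells) at 71.7 ± 1.0, Cdh2 (N-cadherin) at 29.7 ± 2.2, Cdh4 (R-cadherin) at 19.8 ± 4.4, Pcdhgc3 at 14.8 ± 1.7 and Pcdh19 at 12.4 ± 1.6 CPM per kb (SD, n = 3), where Cdh4 and Pcdhgc3, and Pcdhgc3 and Pcdh19, differed by less than the sum of their SDs. Pcdhgc3 was divided by its whole exon length, which includes the constant exons, and its place would be higher over the 1821 bases that no other gene shares, at 44.7 CPM per kb.

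**Figure D1:**
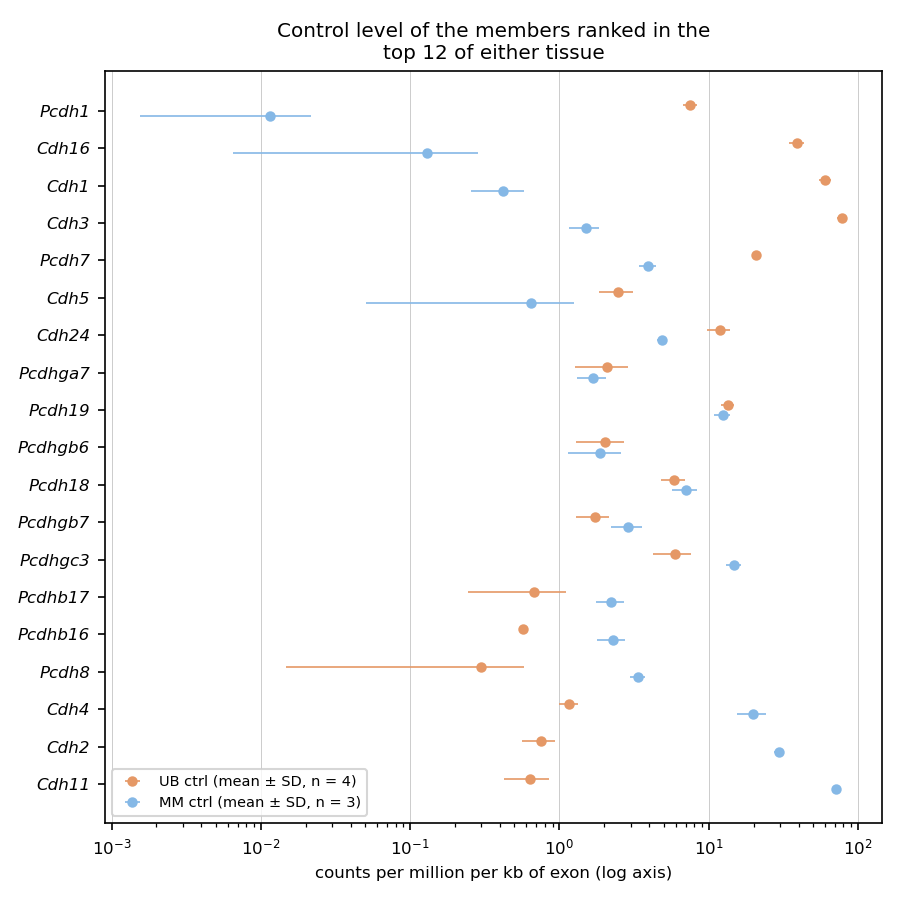
Level of each member ranked in the top 12 of either control tissue, as CPM per kb of exon on a log axis; points are means and bars SD over 4 UB ctrl and 3 MM ctrl libraries. Cdh3, Cdh1 and Cdh16 stand at 38.9 to 78.0 CPM per kb in UB ctrl and at 0.13 to 1.51 in MM ctrl, and Cdh11, Cdh2 and Cdh4 at 0.64 to 1.16 in UB ctrl and 19.8 to 71.7 in MM ctrl.

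Between UB ctrl and MM ctrl, 8 of the 52 members tested were higher in UB ctrl and 14 were lower, where 16.7% of all genes tested were higher and 15% lower (edgeR quasi-likelihood test, adjusted p under 0.05 over 14078 genes). The tissues cannot be told apart here from embryonic day and transgene, while UB ctrl library 2 has the Mek2 genotype of the MM controls. Cdh1 was at 265, 251, 276 and 314 CPM in UB ctrl, against 1.07, 2.44 and 2.20 CPM in MM ctrl (log2 fold change 7.16, SE 0.22, adjusted p = 1.45e-14). Cdh16 was at 130, 151, 140 and 169 CPM in UB ctrl and at 0.15, 0.15 and 1.17 CPM in MM ctrl (log2 fold change 8.15, SE 0.32). Its MM ctrl values come from 1, 1 and 8 reads, so the size of this fold is imprecise. Neither gene came near to overlapping between the tissues. Pcdh1 had 347 to 541 reads in UB ctrl libraries and 0 or 1 in MM ctrl libraries, and Pcdh11x had 16 to 42 reads in UB ctrl and 0 to 2 in MM ctrl, so that their folds rest on almost no MM reads and are not given. Cdh3 (5.68, SE 0.18), Pcdh7 (2.41, SE 0.14), Cdh5 (1.91, SE 0.56) and Cdh24 (1.28, SE 0.21) were also higher in UB ctrl.

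Cdh11 was at 5.57, 8.39, 5.0 and 3.83 CPM in UB ctrl, against 630, 648 and 637 CPM in MM ctrl (log2 fold change -6.80, SE 0.19, adjusted p = 4.90e-15). Cdh2 was at 4.19 to 7.81 CPM in UB ctrl and 224 to 259 CPM in MM ctrl (log2 fold change -5.31, SE 0.18), and Cdh4 was lower in UB ctrl as well (-4.09, SE 0.19). Cdh6 (K-cadherin), known from the early nephron, was at 0.98, 1.24, 1.35 and 0.88 CPM in UB ctrl, against 16.9, 12.8 and 24.5 CPM in MM ctrl (-3.99, SE 0.42, adjusted p = 3.25e-07). The protocadherins Pcdh8 (-3.46, SE 0.59), Pcdh15 (-3.11, SE 0.89) and Pcdh17 (-1.24, SE 0.34), 6 members of the beta cluster and Pcdhgc3 (-1.32, SE 0.19) made up the rest. Of the 22 calls, 18 held in each of 7 fits that left out 1 library. Cdh5 without MM ctrl library 2 (adjusted p = 0.0504), Pcdhb19 without UB ctrl library 1 or 4 or MM ctrl library 1 or 2 (up to 0.108), Pcdh15 without MM ctrl library 3 (0.0643) and Pcdh17 without MM ctrl library 1 (0.0501) did not.

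The comparison of UB dko with UB ctrl asked what loss of MAPK/ERK did to the cadherins of the ureteric epithelium. Of 45 members tested, 1 rose and 0 fell, where 2.70% of all 13425 genes tested rose and 1.24% fell. The median log2 fold change was 0.20 over these members and 0.06 over all genes. The member that rose was Cdh6, which ureteric cells of the controls hardly made. At an unadjusted p under 0.05 there were 10 higher and 1 lower. The share of all genes at that threshold is not given here, so these counts cannot be weighed. DESeq2 called 3 higher and 0 lower of 54, where it called 5.70% of genes higher and 3.39% lower. Voom gave 7 higher and 4 lower, against 18.3% and 16.5% of genes, and a fit with the replicate number as a block gave 0 and 0, against 0.402% and 0.0968% of genes. With no filter on low counts there were 3 and 0, against 2.09% and 1.15% of genes. With offsets for GC content and transcript length 4 rose and 0 fell, where 6.16% of genes rose and 4.04% fell. UB dko libraries 1 and 3 alone gave 2 members that rose and 1 that fell, against 4.12% and 3.89% of genes, and 0 calls shared with the 4 libraries together. Libraries 2 and 4 alone, which carry the GC trend, gave 5 and 5, against 20.0% and 19.9% of genes. Pcdh1, Pcdh11x, Cdh15, Pcdhb14 and Pcdhgc4 are named here although their values had been seen.

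**Figure D2:**
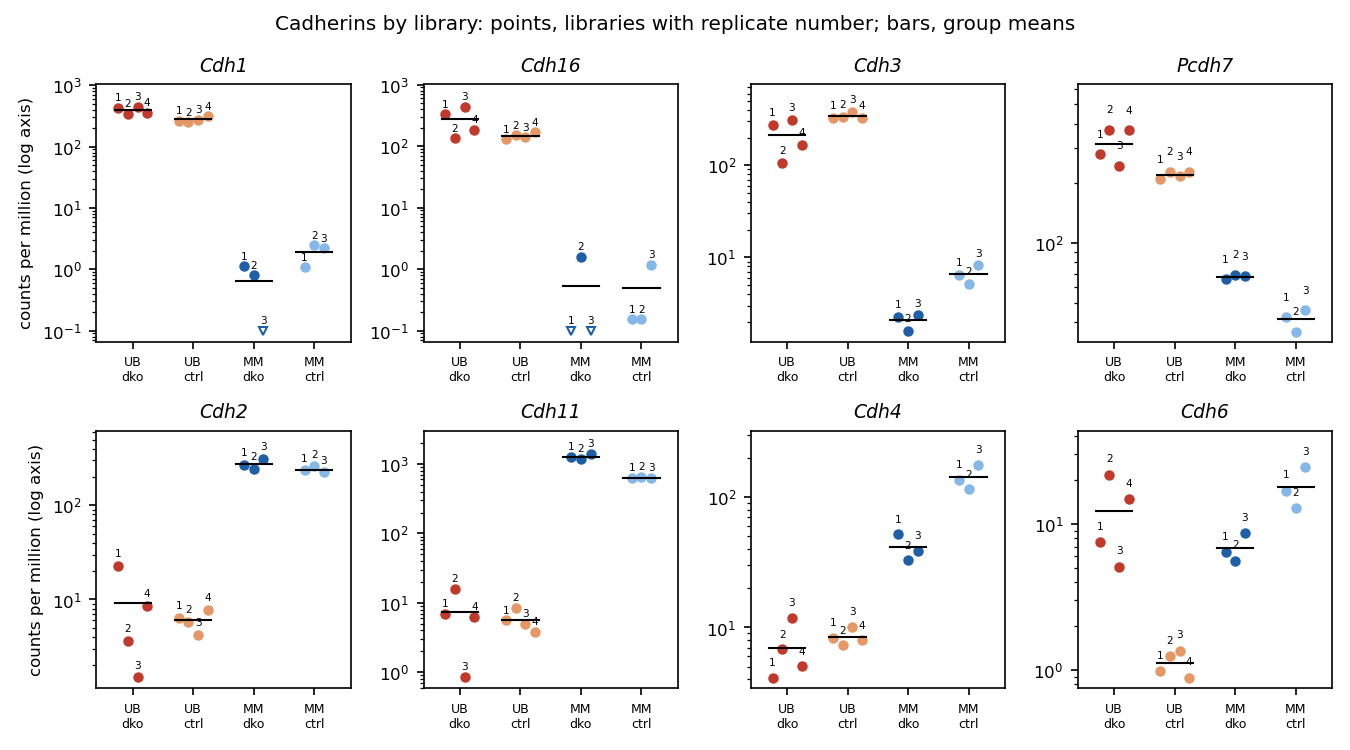
Level in CPM (log axis) of 8 cadherins and protocadherins in each library, UB dko, UB ctrl, MM dko and MM ctrl from left to right; filled points are libraries with their replicate number, open triangles libraries at 0, and bars group means. Cdh6 is at 5.10 to 21.7 CPM in UB dko, above all UB ctrl libraries (0.88 to 1.35), and at 5.59 to 8.62 CPM in MM dko, below all MM ctrl libraries (12.8 to 24.5).

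Cdh6 (ENSMUSG00000039385, GRCm38 chromosome 15, 13028701 to 13173675, minus strand) was at 7.49, 21.7, 5.10 and 14.7 CPM in UB dko, from 60, 96, 24 and 93 reads, against 0.98, 1.24, 1.35 and 0.88 CPM in UB ctrl, from 6, 9, 10 and 6 reads. Each UB dko library was above each UB ctrl library. The log2 fold change was 3.44 (SE 0.58, adjusted p = 0.0124 in edgeR). Libraries 2 and 4 alone gave 4.00 (adjusted p = 3.82e-06) and libraries 1 and 3 alone gave 2.45 (adjusted p = 0.0757). The call was lost in each fit that left out 1 UB ctrl library, with 3.38, 3.49, 3.54 and 3.34 and adjusted p = 0.0505, 0.0657, 0.0582 and 0.0618 without libraries 1 to 4. With offsets for GC content and length it was 2.93 (adjusted p = 0.00187). Six2, the defining gene of nephron progenitors, was at 10.7, 0, 0 and 0 CPM in UB dko, against 1.62 to 9.18 CPM in UB ctrl, and the summed nephron progenitor markers were at 9.49 to 41.1 CPM in UB dko and 11 to 28.4 CPM in UB ctrl. Summed early nephron markers were at 571 to 772 CPM in UB dko and 861 to 964 CPM in UB ctrl, and the members of that list moved in different directions. Ccnd1, with the values given above, was lower in UB dko, whereas Pax8 was at 81.1, 80.0, 141 and 70.7 CPM in UB dko, against 47.8 to 70.4 CPM in UB ctrl, and Wnt4 was at 23.8, 3.39, 24.0 and 4.44 CPM in UB dko, against 3.77 to 9.43 CPM in UB ctrl. Fgf8 and Hnf4a were at 0 in UB dko and at most 0.74 CPM in UB ctrl. The part of other cells in the Cdh6 value was not tested.

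The main cadherins of the ureteric epithelium did not pass the test when all 4 libraries labelled UB dko entered. Cdh1 (chromosome 8, 106603351 to 106670246) was at 430, 344, 450 and 356 CPM in UB dko, against 265, 251, 276 and 314 CPM in UB ctrl, so that each UB dko library was above each UB ctrl library (log2 fold change 0.52, SE 0.17, adjusted p = 0.107). The GC and length offsets gave 0.61 (adjusted p = 0.00190). UB dko libraries 1 and 3 alone gave 0.64 (adjusted p = 0.0119) and libraries 2 and 4 alone gave 0.35 (adjusted p = 0.0506). The 95% interval of the difference in all libraries ran from 0.19 to 0.86.

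Cdh16 (chromosome 8, 104601911 to 104624396) was at 328, 134, 441 and 184 CPM in UB dko, against 130, 151, 140 and 169 CPM in UB ctrl. Libraries 1 and 3, which had no trend with GC content and were at the control level of Map2k2, were far above the controls, and library 2 lay inside their range. The log2 fold change was 0.89 (SE 0.32, adjusted p = 0.135), 1.35 in libraries 1 and 3 alone (adjusted p = 3.73e-04), 0.12 in libraries 2 and 4 alone (adjusted p = 0.608) and 1.14 with GC and length offsets (adjusted p = 1.54e-04). At 56.1% the longest Cdh16 transcript is rich in GC, and that of Cdh1 has 50.7%.

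Cdh3 (chromosome 8, 106510891 to 106557297), next to Cdh1 in the genome, was at 276, 106, 311 and 167 CPM in UB dko, against 326, 335, 381 and 325 CPM in UB ctrl. Each UB dko library was below each UB ctrl library, though libraries 1 and 3 by little (log2 fold change -0.66, SE 0.29, adjusted p = 0.212). Libraries 2 and 4 alone gave -1.32 (adjusted p = 1.28e-05), and with GC and length offsets the value was -0.57 (adjusted p = 0.0543). Cdh1 and Cdh3 thus lay on opposite sides of their controls, neither past the threshold over all libraries without the offsets.

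Pcdh7, the main protocadherin of the UB, was at 280, 373, 246 and 370 CPM in UB dko, against 211, 229, 217 and 229 CPM in UB ctrl (log2 fold change 0.52, SE 0.18, adjusted p = 0.130), again with no overlap. In libraries 2 and 4 alone, which carry the GC trend, it was 0.75 (adjusted p = 1.60e-04). Pcdh11x was at 6.37, 16.7, 11.9 and 12.8 CPM in UB dko, against 4.42, 5.77, 3.65 and 2.36 CPM in UB ctrl (1.56, SE 0.46, adjusted p = 0.0816), and DESeq2 called it. The longest transcripts of Pcdh7 and Pcdh11x have 45.8% and 36.3% GC. With GC and length offsets neither gene was among the 4 members called. Pcdh19 was at 94.5 to 214 CPM in UB dko and 122 to 156 CPM in UB ctrl and had a log2 fold change of 0.02 (SE 0.24, 95% interval -0.45 to 0.49). Pcdh1 was at 82.5, 16.7, 106 and 27.4 CPM in UB dko, against 56.9 to 73.1 CPM in UB ctrl, so that libraries 1 and 3 lay above the controls and libraries 2 and 4 below them. Its transcript has 60.7% GC. Cdh24 did the same in part, at 37.3, 21.5, 58.3 and 15.9 CPM in UB dko, against 31.3 to 47.6 CPM in UB ctrl (-0.31, SE 0.36), and in libraries 2 and 4 alone was at -1.16 (adjusted p = 0.00113).

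Library 1 of UB dko stood apart for a few members. Cdh2 was at 22.7, 3.62, 1.49 and 8.56 CPM in UB dko and 4.19 to 7.81 CPM in UB ctrl, Cdh15 (M-cadherin of muscle) had 70, 1, 6 and 4 reads in UB dko and 3 to 17 in UB ctrl, and Pcdhgb1 had 148, 21, 23 and 13 reads in UB dko and 3 to 28 in UB ctrl. Stroma markers summed to 33.9 to 119 CPM in UB dko, highest in library 1, and to 20.3 to 78.5 CPM in UB ctrl, and their part in these values was not tested. Cdh5 (VE-cadherin of endothelium) was at 3.62, 16, 1.28 and 5.07 CPM in UB dko, against 6.88, 11.7, 13 and 9.87 CPM in UB ctrl (-0.67, SE 0.63, adjusted p = 0.585), while all 10 endothelial markers were detected and summed to 7.02 to 30.2 CPM in UB dko and 25.1 to 47.4 CPM in UB ctrl. Cdh19, a cadherin of neural crest cells, had 0 reads in all 14 libraries, and the neural crest marker Foxd3 was also at 0 in both tissues.

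In the MM, the comparison asked the same of nephron progenitors. Of 47 members tested, 12 rose and 6 fell, which has to be read against 25.0% of all 12431 genes that rose and 27.9% that fell. The medians were 0.34 over these members and -0.05 over all genes. Cadherins made up most of the members that fell, with Cdh24, Cdh4, Cdh3 and Cdh6. Protocadherins made up most of those that rose, with 6 of the 7 tested outside the clusters. They were also most of the 47 members tested, with 12 of the beta and 20 of the gamma cluster, so their share of the rises does not set them apart. Among those outside the clusters, Pcdh7, Pcdh10, Pcdh17 and Pcdh18 were not called with GC and length offsets. Values in MM dko moved with GC content. Transcripts of members that rose had 39.1 to 59.3% GC with a median of 45.2%, and those that fell had 42.4 to 61.2% with a median of 54.4%. With GC and length offsets 6 members rose and 2 fell, where 10.9% of genes rose and 11% fell, and 6 of the 18 calls were shared. Scaling by library size only, which moves all genes in the MM by -0.44 on the log2 scale, left 4 that rose. For that count the share of all genes is not given. DESeq2 called 11 higher and 6 lower of 63, where it called 21.5% and 19.6% of genes.

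**Figure D3:**
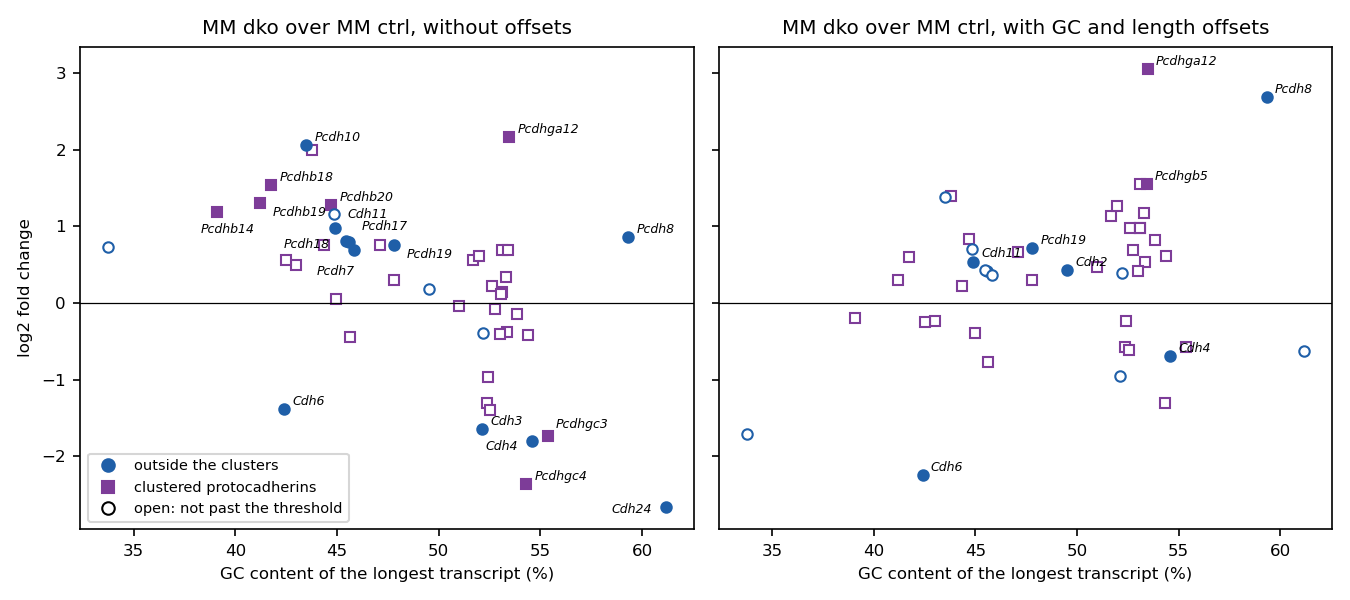
Log2 fold change of MM dko over MM ctrl for each of the 47 members tested against the GC content of its longest transcript, without offsets on the left and with GC and length offsets on the right; circles are members outside the clusters, squares clustered protocadherins, and filled symbols have an adjusted p under 0.05. Cdh24 (61.2% GC) moves from -2.66 on the left to -0.63 on the right, and Cdh6 (42.4% GC) from -1.38 to -2.24.

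Cdh6 was at 6.42, 5.59 and 8.62 CPM in MM dko, against 16.9, 12.8 and 24.5 CPM in MM ctrl, with no overlap (log2 fold change -1.38, SE 0.40, adjusted p = 0.00944). The call held in all 6 fits that left out 1 library, at an adjusted p of at most 0.0416. Cdh6 is poor in GC (42.4%) and fell where other such genes rose, and with GC and length offsets the fall was deeper, at -2.24 (SE 0.40, adjusted p = 0.00117). Early nephron markers summed to 447 to 502 CPM in MM dko and 582 to 807 CPM in MM ctrl, and members of the list did not move alike. Wnt4 was at 27.4 to 35.5 CPM in MM dko, against 84.7 to 149 CPM in MM ctrl. Ccnd1 was at 68.7 to 105, against 130 to 196 CPM, and Pax8 at 86.9 to 120, against 135 to 163 CPM. Jag1 (76.7 to 119, against 85.2 to 119 CPM) and Bmp2 (61.5 to 94.1, against 59.1 to 74.2 CPM) overlapped the controls. The part of cell make-up in the Cdh6 value was not tested. In bulk libraries fewer cells of a type and less RNA per cell cannot be told apart.

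Cdh4 (chromosome 2, 179442431 to 179899373) was at 52.1, 32.8 and 38.8 CPM in MM dko, against 137, 116 and 178 CPM in MM ctrl (log2 fold change -1.80, SE 0.22, adjusted p = 2.38e-05). It too was called in all 6 such fits, and with the offsets it was -0.70 (SE 0.23, adjusted p = 0.0413). Cdh24 (chromosome 14, 54631231 to 54641364) was at 2.27, 3.99 and 2.35 CPM in MM dko, against 16.3, 18.5 and 16.4 CPM in MM ctrl (-2.66, SE 0.44, adjusted p = 2.42e-04), but -0.63 with the offsets (adjusted p = 0.313). Cdh3 was at 2.27, 1.60 and 2.35 CPM in MM dko, against 6.45, 5.19 and 8.21 CPM in MM ctrl (-1.64, SE 0.59, adjusted p = 0.0305), and it lost the call in each of the 6 fits that left out 1 library, where the adjusted p reached 0.0811. Cdh1, the defining cadherin of epithelium, was too low to test in the MM, at 1.13, 0.80 and 0 CPM in MM dko, against 1.07, 2.44 and 2.20 CPM in MM ctrl, and so was Cdh16, at most 1.60 CPM.

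Cdh11, the most abundant member of the MM, was at 1242, 1197 and 1375 CPM in MM dko, against 630, 648 and 637 CPM in MM ctrl (log2 fold change 0.97, SE 0.14, adjusted p = 9.09e-05). With the offsets it was 0.54 (SE 0.11, adjusted p = 0.00373). Cdh2 was at 268, 242 and 314 CPM in MM dko, against 235, 259 and 224 CPM in MM ctrl (0.18, SE 0.16, adjusted p = 0.348), and 0.43 with the offsets (adjusted p = 0.0445). All 11 stroma markers were detected and summed to 779 to 897 CPM in MM dko and 474 to 557 CPM in MM ctrl. Foxd1, which defines kidney stroma, was at 128, 141 and 94.8 CPM in MM dko, against 36.7, 44.3 and 45.9 CPM in MM ctrl. Most of the higher sum came from Meis2, at 415 to 568 CPM in MM dko and 308 to 361 CPM in MM ctrl, from Foxd1 and from Meis1. Other markers of the list did not follow, with Pdgfrb at 2.27, 0 and 3.14 CPM in MM dko, against 6.75, 10.2 and 13.6 CPM in MM ctrl, and Col1a1 at 9.44, 24.8 and 10.2 CPM in MM dko, against 25.8, 15.7 and 61.0 CPM in MM ctrl. The part of stromal RNA in the rise of Cdh11 was not tested.

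Pcdh8, Pcdh10, Pcdh17, Pcdh18 and Pcdh19 belong to the delta2 branch of protocadherins outside the clusters, and Pcdh7 belongs to the delta1 branch. Pcdh19 (an X-linked adhesion protein best known from neurons) was at 211, 256 and 201 CPM in MM dko, against 118, 124 and 148 CPM in MM ctrl (log2 fold change 0.76, SE 0.17, adjusted p = 0.00188), and 0.72 with the offsets (adjusted p = 0.00473). Pcdh8, related to paraxial protocadherin of the early embryo, was at 34.4, 21.6 and 27.8 CPM in MM dko, against 17.3, 14.5 and 13.9 CPM in MM ctrl (0.86, SE 0.30, adjusted p = 0.0247). At 59.3% GC it rose against the trend, and with the offsets it was 2.68 (SE 0.34, adjusted p = 7.15e-05). Pcdh7 was at 66.1, 69.5 and 68.2 CPM in MM dko, against 42.5, 35.9 and 46.2 CPM in MM ctrl (0.69, SE 0.20, adjusted p = 0.0108), Pcdh18 at 40.7 to 84.7 CPM in MM dko and 31.0 to 45.5 CPM in MM ctrl (0.80, SE 0.26), Pcdh17 at 17.6 to 34.7 CPM in MM dko and 12.8 to 19.5 CPM in MM ctrl (0.80, SE 0.32), and Pcdh10 at 12.8, 0.80 and 11.4 CPM in MM dko and 3.68, 1.99 and 0.44 CPM in MM ctrl (2.06, SE 0.82). The groups overlapped for Pcdh18, Pcdh17 and Pcdh10.

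These calls were not equally firm. Of the 18 calls in the MM, 9 held in all 6 fits that left out 1 library, those of Cdh4, Cdh6, Cdh11, Cdh24, Pcdh19, Pcdhb19, Pcdhga12, Pcdhgc3 and Pcdhgc4. Pcdh7 lost it without MM ctrl library 2 (adjusted p = 0.0696) and Pcdhb18 without MM dko library 3 (adjusted p = 0.104). Pcdh8, Pcdh10, Pcdh17, Pcdh18, Pcdhb14 and Pcdhb20 lost it without MM dko library 3 and at least 1 other library, up to an adjusted p of 0.106, 0.204, 0.191, 0.130, 0.124 and 0.155 in that order. With the offsets Pcdh7 (0.37), Pcdh10 (1.38), Pcdh17 (0.41) and Pcdh18 (0.43) kept their sign and were not called.

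**Figure D4:**
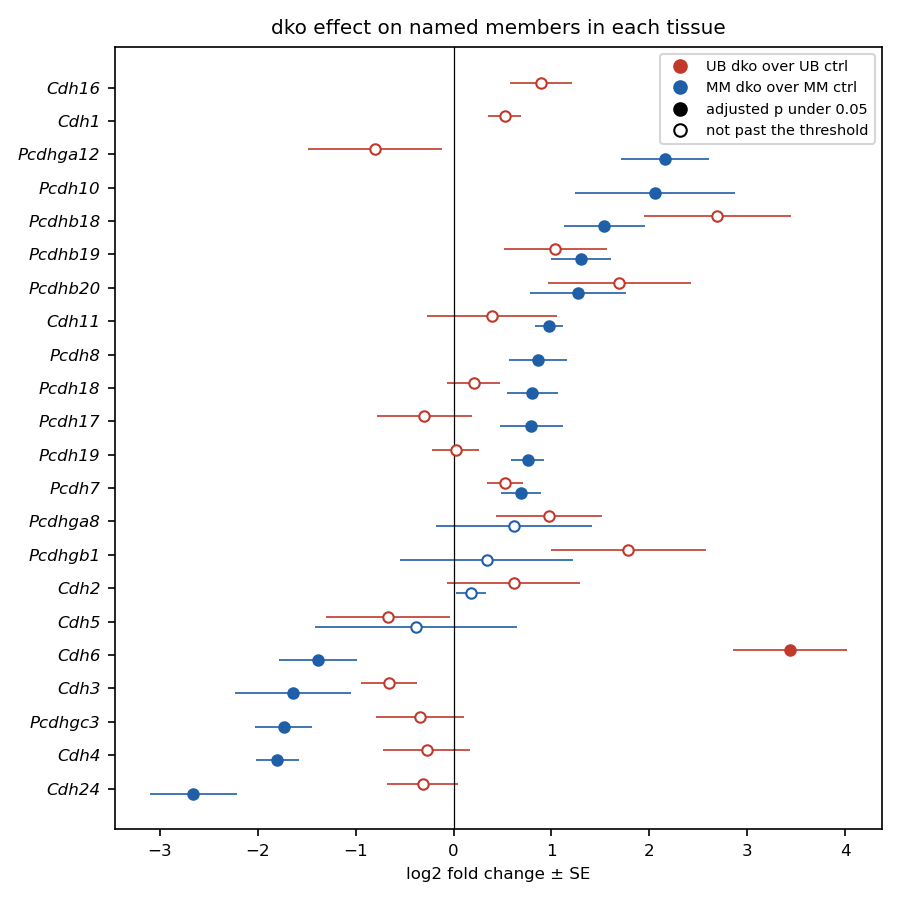
Log2 fold change (point) and SE (bar) of the named members in UB dko over UB ctrl (red) and MM dko over MM ctrl (blue), with filled points at an adjusted p under 0.05. Cdh6 is at 3.44 in the UB and -1.38 in the MM, and members with a single point were tested in 1 tissue.

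The clustered protocadherins were described by their sums, since each member alone had few reads. The alpha cluster was close to silent, with 0 to 26 reads per library over its 14 genes, and none could be tested. The beta cluster, whose genes share no exon bases with other annotated genes apart from Pcdhb12, Pcdhb21 and Pcdhb22, summed to 46.8, 115, 79.1 and 56.1 CPM in UB dko, against 23.8, 34.4, 34.6 and 26.8 CPM in UB ctrl, so that each UB dko library was above each UB ctrl library, also the pair without a GC trend. In the MM the sums were 161, 141 and 199 CPM in MM dko, against 97.0, 90.9 and 92.8 CPM in MM ctrl, again without overlap. All 8 beta members tested in the UB had a positive log2 fold change with a median of 1.17, and 11 of 12 tested in the MM had one, with a median of 0.76, beside 0.06 and -0.05 over all genes. Their transcripts are poor in GC, at 39.1 to 47.8%, and with GC and length offsets the medians were 0.88 in the UB and 0.26 in the MM.

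**Figure D5:**
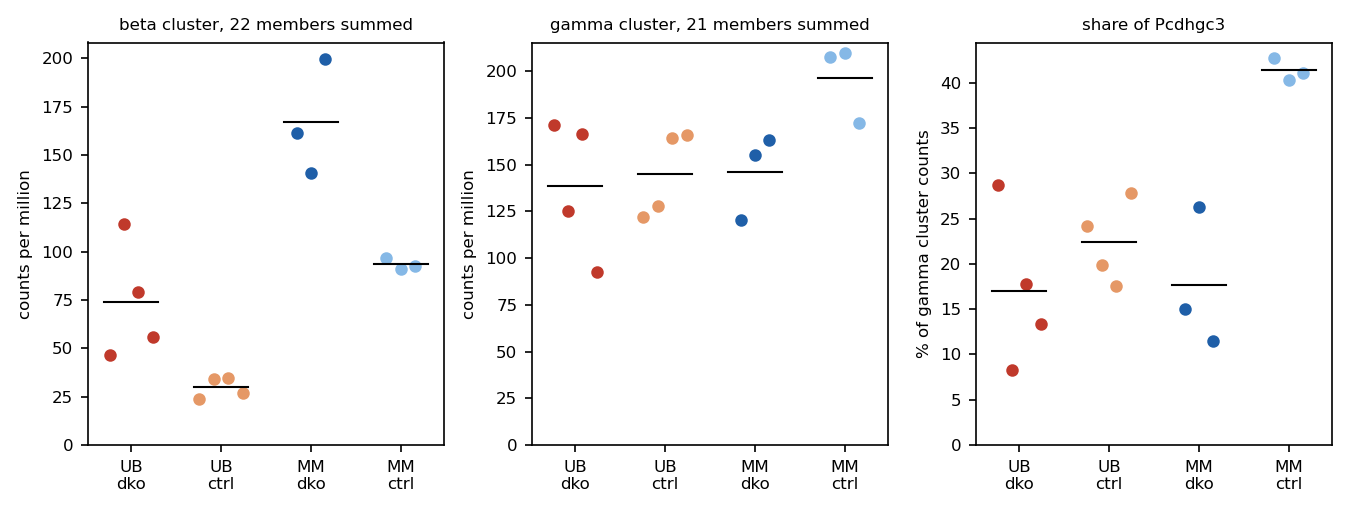
Summed CPM of the beta cluster (left) and gamma cluster (middle) and the share of gamma cluster reads assigned to Pcdhgc3 (right), with a point for each library and a bar for the group mean, UB dko, UB ctrl, MM dko and MM ctrl from left to right. Beta sums are higher in dko in both tissues, and the Pcdhgc3 share is at 11.5 to 26.3% in MM dko, against 40.3 to 42.7% in MM ctrl.

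Of single beta members, 0 passed the test in the UB and 4 rose in the MM (Pcdhb14, Pcdhb18, Pcdhb19 and Pcdhb20), of which 0 passed with the offsets and Pcdhb14 (1.19, SE 0.42) changed sign to -0.19. Pcdhb18 was at 2.25, 30.7, 15.7 and 5.86 CPM in UB dko, against 2.13, 2.06, 0.945 and 3.24 CPM in UB ctrl (log2 fold change 2.70, SE 0.75, adjusted p = 0.0659). DESeq2 and the GC and length offsets called it (2.26 with the offsets, adjusted p = 0.0370), although UB dko library 1 lay among the controls. In the MM it was at 18.5, 12.8 and 36.8 CPM in MM dko, against 5.53, 8.86 and 9.09 CPM in MM ctrl (1.54, SE 0.42, adjusted p = 0.00681), and 0.60 with the offsets. Pcdhb19 was at 32.5, 32.0 and 27.4 CPM in MM dko, against 14.4, 13.1 and 9.09 CPM in MM ctrl (1.30, SE 0.31, adjusted p = 0.00295), and 0.31 with the offsets. Pcdhb20 was at 6.04, 20.0 and 16.9 CPM in MM dko, against 4.91, 5.04 and 7.19 CPM in MM ctrl (1.27, SE 0.49, adjusted p = 0.0406).

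The gamma cluster did not follow the beta cluster. It summed to 171, 125, 166 and 92.7 CPM in UB dko, against 122, 128, 164 and 166 CPM in UB ctrl, and to 120, 155 and 163 CPM in MM dko, against 208, 210 and 172 CPM in MM ctrl. Pcdhgc3, a C-type member used by many cells, accounted for the gap in the MM. It was at 18.1, 40.7 and 18.8 CPM in MM dko, against 88.7, 84.5 and 70.8 CPM in MM ctrl (log2 fold change -1.74, SE 0.29, adjusted p = 2.62e-04), and without it the sums were 102, 114 and 145 CPM in MM dko, against 119, 125 and 101 CPM in MM ctrl. Its share of gamma cluster reads was 15, 26.3 and 11.5% in MM dko, against 42.7, 40.3 and 41.1% in MM ctrl. At 55.4% GC, it was at -0.58 with the offsets (adjusted p = 0.110). Pcdhgc4 fell as well (-2.36, SE 0.60, adjusted p = 0.00468), and was not called with the offsets.

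In the UB Pcdhgc3 was at 49.2, 10.4, 29.6 and 12.4 CPM in UB dko, against 29.5, 25.4, 28.9 and 46.2 CPM in UB ctrl (-0.34, SE 0.45), with the low values in the libraries that carry a GC trend. Pcdhga12 was at 16.2, 16 and 32.1 CPM in MM dko, against 5.99, 5.65 and 2.64 CPM in MM ctrl (2.16, SE 0.45, adjusted p = 0.00119). At 53.5% GC it rose more with the offsets (3.05, adjusted p = 3.29e-04), and it was the single gamma member that rose. In the UB it was at 8.24, 4.75, 1.91 and 2.69 CPM in UB dko, against 3.61, 4.67, 19.2 and 3.68 CPM in UB ctrl (-0.80, SE 0.68). Pcdhga8 (0.98, SE 0.54) and Pcdhgb1 (1.79, SE 0.79) had the smallest p of gamma members in the UB and did not pass. Reads in shared constant exons were not given to each gene, since Pcdhga1 had 1 read in UB dko library 1, where the cluster had 1372, and the gamma values therefore rest mainly on variable exons.

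The difference of the dko effect between the tissues was tested directly in 1 fit of all 14 libraries. Of 57 members tested, 3 had a higher effect in the UB than in the MM and 0 a lower one, where 4.33% and 1.81% of 15225 genes did. At an unadjusted p under 0.05 there were 7 higher and 3 lower, and DESeq2 called 1 lower. The share of all genes is not given for these counts, so they cannot be weighed, and the 3 edgeR calls are described here. These 3 were Cdh6 (difference of log2 fold changes 4.80, SE 0.74, adjusted p = 0.00440), Cdh24 (2.32, SE 0.60, adjusted p = 0.0332) and Cdh4 (1.49, SE 0.44, adjusted p = 0.0499). Cdh6 rose in the UB and fell in the MM, and its difference was called in all 14 fits that left out 1 library (adjusted p at most 0.0216), in UB dko libraries 1 and 3 alone (3.92, adjusted p = 2.34e-04), in libraries 2 and 4 alone (5.37, adjusted p = 2.47e-05) and with the offsets (5.15, adjusted p = 9.56e-05). Its level in UB dko (5.10 to 21.7 CPM) thereby overlapped that in MM dko (5.59 to 8.62 CPM), whereas UB ctrl and MM ctrl did not overlap.

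The other calls were weaker. With the offsets 1 member (Cdh6) had a higher and 1 (Pcdhga12) a lower effect in the UB, where 2.94% and 2.46% of genes did. Cdh24 and Cdh4 fell in the MM and had log2 fold changes of -0.31 and -0.27 in the UB, and their differences were 0.96 (adjusted p = 0.201) and 0.62 (adjusted p = 0.414) with the offsets. They were called in 4 and 3 of the 14 fits that left out 1 library, and lost the call without UB dko library 3 and without each single UB ctrl or MM ctrl library, with an adjusted p of up to 0.110 for Cdh24 and 0.139 for Cdh4. Cdh1 (2.10, SE 0.62, adjusted p = 0.0514) and Pcdhga12 (-2.98, SE 0.92, adjusted p = 0.0570) lay just outside the threshold, and Pcdhga12 was called with the offsets (-3.62, adjusted p = 0.0184). The MM part of the Cdh1 difference rests on 3, 1 and 0 reads in MM dko and 7, 16 and 15 in MM ctrl, so its size is imprecise.

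Genes that work with cadherins were read from 9 lists in the same fits. In the UB, 2 of 94 genes rose and 2 fell, close to the shares of 2.70% and 1.24% over all genes. These were Dsc2 (log2 fold change 1.50, SE 0.27, adjusted p = 0.0158), a desmosomal cadherin, Ehf (1.62, SE 0.36, adjusted p = 0.0310), an epithelial transcription factor, Ctnnd2 (-1.09, SE 0.24, adjusted p = 0.0290), the delta-catenin best known from neurons, and Dnmt3b (-0.96, SE 0.21, adjusted p = 0.0289), a DNA methyltransferase listed as a regulator of the clusters. All 4 were also called with the offsets, where 9 rose and 4 fell, against 6.16% and 4.04% of all genes.

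In the MM, 21 of 83 list genes rose and 26 fell, shares near those of all genes, and 9 rose and 8 fell with the offsets. Among catenins and junction linkers 3 rose and 5 fell of 14. Ctnnd1, the p120 catenin that keeps cadherins at the surface, rose (1.73, SE 0.22, adjusted p = 2.76e-05; 1.74 with the offsets), as did Vcl (vinculin; 1.16, SE 0.18; 1.27 with the offsets), whereas Jup (plakoglobin) was at -1.73 and -0.02 with the offsets and Afdn (afadin) at -0.68 and -0.59 with the offsets. Of the nectins, Nectin3 rose (1.13, 0.78 with the offsets) and Nectin2 and Nectin1 fell (-2.32 and -2.36, -0.68 and -0.65 with the offsets, where neither was called). Of 11 other cadherin superfamily genes 6 fell and 0 rose, with a median of -1.13, where 27.9% of all genes fell, and with the offsets 3 fell, where 11% did. Dchs1 (-2.65, SE 0.29, adjusted p = 1.26e-05) and Celsr1 (-2.46, SE 0.28, adjusted p = 1.26e-05), large cadherins of planar polarity, were at -1.07 and -0.81 with the offsets and still called.

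For the other lists the calls in the MM mostly did not survive the offsets. Among shedding and cleavage genes Adam10 was at 0.50 and Ncstn and Psenen at -1.58 and -2.03, and with the offsets Ncstn was called (-0.95), Psenen was not (-0.81) and Adam10 was at -0.36. Among endocytosis genes Cbll1 (0.99), Ptprk (0.62), Ptprf (-1.96) and Ptprj (-0.81) were called, and with the offsets 0 of the 9 tested. Zeb2 (1.14) and Snai2 (1.23), repressors of Cdh1 in mesenchyme, rose, and were at 0.01 and 0.63 with the offsets. Of the regulators of the clusters, Lrif1 (1.87), Stag2 (1.01), Trim28 (-1.71) and Wiz (-1.58) were at -0.57, -0.56, 0.10 and -0.20 with the offsets, so that the first 3 changed sign and Stag2 was then called lower (adjusted p = 0.00819). Of WAVE and protocadherin partners Abi1 rose (1.51, 0.52 with the offsets), and Abi2 (0.73), Brk1 (-1.43) and Wasf2 (-0.60) were at -0.05, -0.78 and 0.44 with the offsets.

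Of the 92 members, 39 were tested in neither tissue, with at most 145 reads in all 14 libraries together, and 7 of them had 0 reads (Pcdha1, Pcdha2, Pcdha6, Pcdha8, Pcdhac1, Pcdhb1 and Cdh19). These 39 are all 14 alpha genes, 10 of the beta cluster and 15 outside the clusters, among them Cdh13, Cdh17, Cdh22, Cdh23 and Cdh26. With the filter on low counts, Cdh15 entered the fit of the control tissues and Cdh15, Pcdhb4, Pcdhb8 and Pcdhb9 that of the difference between tissues, and none was called there (Pcdhb8 adjusted p = 0.133, Cdh15 adjusted p = 0.149 in edgeR). In that difference voom called Pcdhb8 (adjusted p = 0.0233), and UB dko libraries 1 and 3 alone called Cdh15 (adjusted p = 0.0280), which had 70 reads in UB dko library 1 and 0 in each MM dko library. The rest were not tested with the filter. With no filter Cdh22 (0 reads in each MM dko library, against 13, 29 and 3 in MM ctrl) and Pcdh20 (2, 10 and 0 reads in MM dko, against 0 in each MM ctrl library) were called in the MM, where 14.9% of genes were lower and 12.3% higher, and Pcdh20 and Cdh8 were among 3 members called lower in the difference, beside 5 called higher, where 1.96% and 4.47% of genes were.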

How the data were processed

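GFP-positive cells were sorted from both kidneys of 1 embryo per library. Libraries were made with NuGen Ovation Solo, which primes at random, and the authors deposited raw counts of single-end reads per gene, trimmed with Trimmomatic, aligned to GRCm38 with STAR and counted with featureCounts on GENCODE annotation. The submitters' processing notes also name HISAT2, HTSeq and DESeq2 without a role. No molecular identifiers and no strand setting are stated, so overlapping and antisense genes cannot be separated, and intervals cover the spread between embryos only. Library totals are in the report, and a level of few reads is imprecise accordingly.

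From the deposited counts, genes were kept by filterByExpr (minimum count 10, minimum total 15), scaled by TMM and tested with the robust quasi-likelihood test of edgeR 4.0.16, without a replicate block, with Benjamini-Hochberg adjustment over all genes tested and a threshold of 0.05. UB dko with UB ctrl, MM dko with MM ctrl, and UB ctrl with MM ctrl were separate fits, and the difference of effects was an interaction in a fit of all 14 libraries. CPM values were scaled jointly over the 14 libraries. SE is the log2 fold change divided by the root of F, and intervals are 1.96 SE to each side. They are narrower than 95% intervals of the quasi-likelihood F test. For Pcdhb19 in the UB the interval ran from 0.0067 to 2.07, where that test gave an unadjusted p = 0.0720. GC content and exon length came from GENCODE M21, an annotation other than the one counted on. Alternatives were DESeq2 1.42.0, limma 3.58.1 voom with quality weights, RLE and library size scaling, other filters, GC and length spline offsets, a replicate block, each library left out, and UB dko libraries 1 and 3 alone. UB dko libraries 2 and 4 alone, and either pair in the interaction, were added after seeing the data. Scripts were tested on simulated data.

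Members and gene lists were chosen with earlier results of these data known. Named members were Cdh1, Cdh6 and Cdh16, members outside the clusters called in dko, the 5 highest per kb in each control tissue, those called in the interaction, the 2 of smallest p per cluster and tissue, and Cdh5 and Cdh19. List genes named were the 2 of smallest adjusted p per direction. The pseudogene Pcdhgb8 was left out, and the symbol Pcdha11 stands for 2 identifiers.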

Additional observations from a re-analysis of the deposited data

Results flagged for a closer look

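The effect of the dko genotype differed between UB and MM by test for Cdh6 (4.80 on the log2 scale), Cdh24 (2.32) and Cdh4 (1.49), of which the last 2 did not pass with GC and length offsets.

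A single library stood far from the rest of its group for Pcdhga12, at 19.2 CPM in UB ctrl library 3, and for Pcdhga8, at 5.60 CPM in UB ctrl library 4. These were 2 of 46 groups of 4 libraries examined over the 23 named members, and chance gives about 1 in 20.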

How the results depend on the processing

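Members that rose in UB dko numbered 3 with DESeq2, 3 with no filter on low counts, 7 with voom, 4 with GC and length offsets, 2 in libraries 1 and 3 alone and 5 in libraries 2 and 4 alone, and members that fell numbered 4 with voom, 1 in libraries 1 and 3 alone and 5 in libraries 2 and 4 alone. In MM dko 4 rose with library size only, and 6 rose and 2 fell with the offsets. For the difference between tissues, 5 were higher and 3 lower with no filter, 1 and 1 with the offsets, 1 and 1 with libraries 2 and 4 alone, and 7 and 4 with libraries 1 and 3 alone, while DESeq2 and voom each gave 1 lower. Partner genes in UB dko that rose numbered 0 with library size only, 21 with voom, 9 with the offsets, 9 in libraries 1 and 3 alone and 25 in libraries 2 and 4 alone, and those that fell 4 with DESeq2, 17 with voom, 4 with the offsets and 21 in libraries 2 and 4 alone. In MM dko partner genes that rose and fell numbered 10 and 40 with library size only and 9 and 8 with the offsets. Shares of all genes are not given for the interaction fits with either library pair, DESeq2, voom or the replicate block. The same holds for library size only, the fits with the block and the offsets, and those leaving out 1 library. Those counts cannot be weighed against all genes. The cause of these shifts was not tested.

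Same-numbered libraries did not deviate together (correlations -0.28 to 0.12 in UB, -0.06 to -0.02 in MM), so the numbers were not taken as pairs. The library titles also hold a middle field whose meaning is not stated. Some libraries of the same group share it, but dko and control libraries of a tissue never do. Genotype therefore cannot be told apart from that field in either tissue. With the replicate block 0 members rose in UB dko (Cdh6 at 3.26, adjusted p = 0.0620 in edgeR), 1 was higher in the difference between tissues, and 0 partner genes rose or fell in UB dko. With the block and the offsets 3 members rose and 1 fell in UB dko, 5 rose and 2 fell in MM dko, and partner genes that rose numbered 4 in UB dko and 7 in MM dko, where 7 fell.

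Signs in MM dko turned with the offsets, and with the block and the offsets, for Adam10 (-0.36 and -0.35), Cbll1 (-0.20 and -0.21), Lrif1 (-0.57 and -0.58), Stag2 (-0.56 and -0.57), Trim28 (0.10 and 0.11), Abi2 (-0.046 and -0.047) and Wasf2 (0.44 and 0.44).

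Leaving out 1 library gave 0 to 3 members that rose and 0 that fell in UB dko, 5 to 12 and 5 to 6 in MM dko, 7 to 8 higher and 12 to 16 lower between the control tissues, and 1 to 5 higher and 0 to 1 lower in the difference. Partner genes ran from 0 to 7 and 0 to 4 in UB dko and from 17 to 23 and 20 to 25 in MM dko. Mean beta sums with library size only were 102 CPM in MM ctrl, and mean gamma sums 171 CPM in UB ctrl and 121 CPM in MM dko. The depth of the MM dko libraries, 1443582 to 3438297 counts, limits what can be seen in members of few reads.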
